A study of Rattus norvegicus with 6 samples.

Results

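The tripartite motif (TRIM) genes encode a large family of proteins, most of them ubiquitin ligases. Members were taken as every row of the deposited count tables whose gene name is Trim followed directly by a number, which gave 55 genes of 18077 rows, with no name repeated. A TRIM protein carries, in order, a RING domain that takes ubiquitin from an E2 enzyme, 1 or more B-box zinc fingers and a coiled coil through which it dimerises. The C-terminal domain then differs between members and sets what is bound. A PRY-SPRY domain is found in many antiviral members, a PHD finger and bromodomain in nuclear corepressors, and NHL repeats in RNA-binding members. The muscle RING finger (MuRF) members bind the sarcomere and mark muscle proteins for the proteasome. Several TRIM genes are known targets of interferon.

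RNA sequencing covered 6 libraries of rat cells that the labels describe as neonatal cardiomyocytes, taken from pups of 1 to 3 days. All 6 cultures received palmitic acid at 500 µM for 24 h and an adenovirus, and RNA was taken after 48 h. The control group, Ad-GFP, has 3 libraries, and the group labelled Ad-RNF128, for overexpression of the ubiquitin ligase RNF128, has 3. The labels name no strain, promoter, dose of virus or separate animals, so p-values here reflect the spread among these samples alone, and that spread may be technical. One protocol sentence of the labels writes the overexpressed gene as RNF28, an alias of the member Trim63 in the RefSeq gene table. Titles and the treatment field give RNF128.

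The libraries held 16352844 to 21708973 counts after rounding, and levels are given as CPM, a gene's counts per 1000000 counts of its library. Rnf128 itself was nearly unread, with 0 to 2 counts in the control libraries and 1 to 3 counts in those labelled Ad-RNF128, so the rat gene does not bear out the label, and every direction given here rests on that label. Rnf157, a different RING ligase gene, was at 22.3 to 40.4 CPM in the 3 control libraries and at 1923 to 2553 CPM in the libraries labelled Ad-RNF128. Ad-GFP replicate 1 stood apart, with Spearman correlations of 0.776 to 0.818 with the others and 3551 genes without a read against 1190 to 2288. It is therefore given separately, and the main comparison uses Ad-GFP replicates 2 and 3 as controls for the 3 libraries labelled Ad-RNF128. Among 11 cardiomyocyte markers, 10 reached no more than 23.6 CPM (Ttn) in any library. Myh6, the cardiac myosin heavy chain gene, was at 10.8 to 16.02 CPM in 5 libraries and at 0.104 CPM in replicate 3 labelled Ad-RNF128. Tnnt2, the cardiac troponin T gene, was the exception, at 342.3 and 350.4 CPM in Ad-GFP replicates 2 and 3, 13.3 CPM in replicate 1 and 34.0 to 57.4 CPM in the libraries labelled Ad-RNF128. In Ad-GFP replicates 2 and 3 it makes up most of the summed level of the 11 markers, which was 414 to 419 CPM there. That sum was 78.4 CPM in replicate 1, where Tnnt2 was a minor part, and 39.3 to 124 CPM in the libraries labelled Ad-RNF128. In bulk samples, fewer cells of a type and less RNA per cell cannot be told apart.

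Reads of the TRIM family made up a larger share of the libraries labelled Ad-RNF128. The 55 genes together took 0.162% and 0.159% of the counts in Ad-GFP replicates 2 and 3, 0.136% in replicate 1, and 0.218%, 0.223% and 0.220% in the libraries labelled Ad-RNF128. The last 3 shares lay above all control shares. The 95% Wilson interval, which covers counting error only, was 0.216% to 0.220% in replicate 1 labelled Ad-RNF128, the lowest of the 3. Shares of library totals also depend on all other genes. With totals as the only scaling, the median log2 change of all tested genes against Ad-GFP replicates 2 and 3 was 0.17. Trim28, a nuclear corepressor, gave the most TRIM reads in all control libraries, with 19.2% and 19.1% of them in Ad-GFP replicates 2 and 3. Trim55, a MuRF gene, gave the most in replicates 1 and 2 labelled Ad-RNF128, with 11.1% and 11.4%. Levels are not compared between genes further, since transcript lengths were not used here.

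Of the 55 genes, 44 passed the filter on low counts and were tested with edgeR, and 11 did not. The 11 were Trim9, Trim10, Trim31, Trim40, Trim43a, Trim50, Trim52, Trim58, Trim67, Trim69 and Trim80, and none had more than 9 counts in any library. Mean levels over the 5 compared libraries ran from 0.392 to 267 CPM among the 44, with 7 genes at 100 CPM or more and 6 under 1 CPM.

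Against Ad-GFP replicates 2 and 3, 21 of 44 TRIM genes rose and 7 fell at an adjusted p under 0.05. In the same comparison 56.9% of all 13173 tested genes passed, with 28.9% that rose and 28.0% that fell. At 2-fold or more, 12 TRIM genes rose and 1 fell, against 8.37% and 3.79% of all genes. Of the 12, Trim6, Trim17, Trim29, Trim30c and Trim66 passed the filter on low counts only through the libraries labelled Ad-RNF128. Their entry into the test thus depended on the group in which they were high, which limits these calls. In CPM, the libraries labelled Ad-RNF128 lay above both controls for 27 of the 44 and below both for 4, where this held for 48.7% and 23.6% of all genes. The median log2 change of the 44 was 0.18, beside 0.01 for all genes tested. These log2 changes are relative to TMM scaling. With library totals as the only scaling, the median of all genes moved to 0.17 and that of the TRIM genes to 0.33, and the calls became 25 higher and 2 lower. Calls in the higher direction thus made up 75.0% of TRIM calls with TMM and 92.6% with totals, and 50.8% and 69.0% of the calls over all genes.

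**Figure D1:**
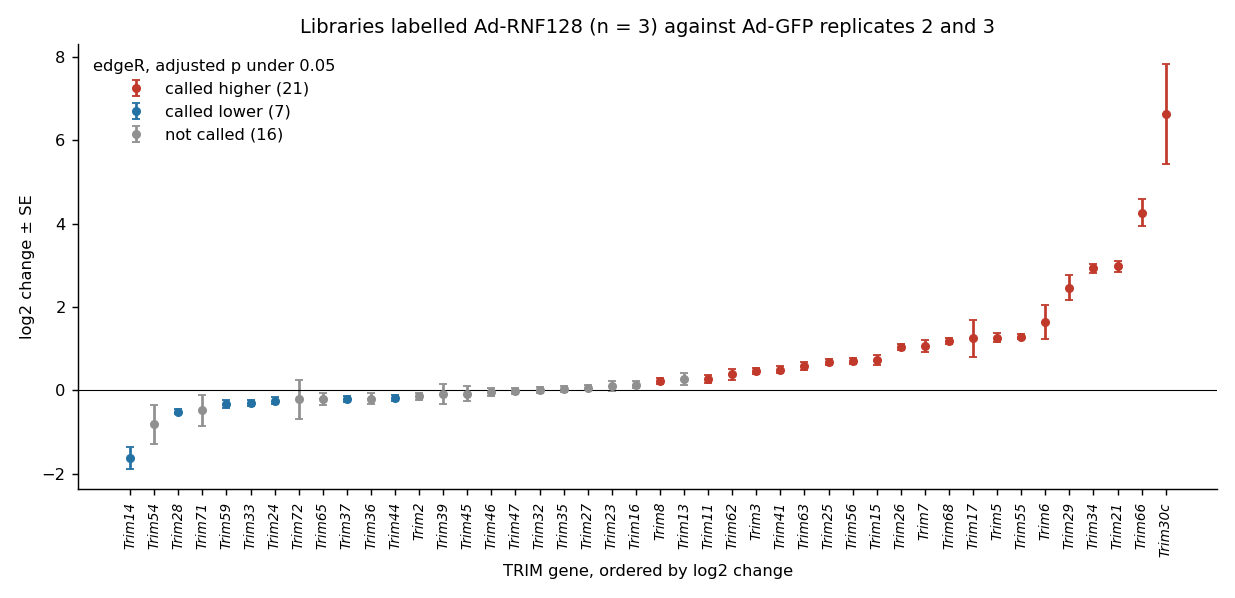
Log2 change (vertical axis, TMM-scaled, with bars of 1 SE) of each of the 44 tested TRIM genes (horizontal axis), taken as the 3 libraries labelled Ad-RNF128 relative to Ad-GFP replicates 2 and 3. Colours mark the 21 genes called higher, the 7 called lower and the 16 not called; Trim66 and Trim30c lie at the upper end and Trim14 at the lower end. The value of Trim30c, with no control read, is a fitted one that depends on the prior count and is no bound.

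Over all 6 libraries no TRIM gene passed. Of the 43 genes tested by edgeR, 0 were higher and 0 lower at an adjusted p under 0.05, as for all genes (0.0% of 12863). At an unadjusted p under 0.05, 9 of 43 TRIM genes passed, 7 higher and 2 lower, against 5.77% of all genes, 3.36% higher and 2.41% lower. DESeq2 called 4 higher (Trim21, Trim34, Trim66 and Trim68) and 1 lower (Trim14), where it called 1.9% and 1.1% of all genes, and limma-voom called 0 of the 43. In CPM, the libraries labelled Ad-RNF128 lay above all 3 control libraries for 18 of the 43 and below them for 1, Trim28. The corresponding shares of all genes were 30.4% and 3.59%.

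Most antiviral and innate immune members rose. Of 12 genes listed, 9 were in the tables (Trim22, Trim30 and Trim38 were not analysed here), and 8 of these 9 rose while 1, Trim14, fell, in a comparison where 28.9% of all genes rose and 28.0% fell. Over all 6 libraries, 8 of the 9 were tested and edgeR called 0, with an unadjusted p under 0.05 for 4 (Trim6, Trim14, Trim21 and Trim34). DESeq2 there called Trim21 and Trim34 higher and Trim14 lower, and limma-voom called 0. Against Ad-GFP replicates 2 and 3 the median log2 change of the 9 was 1.26. Over all 6 libraries that of the 8 was 1.35. Summed over the 9, the level was 218 and 193 CPM in Ad-GFP replicates 2 and 3 and 476 to 542 CPM in the libraries labelled Ad-RNF128. In Ad-GFP replicate 1 the sum was 75.0 CPM, below every other library.

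Trim21, an intracellular receptor for antibody-coated virus, was at 4.93 and 3.56 CPM in Ad-GFP replicates 2 and 3 and at 37.5, 40.7 and 32.05 CPM in the libraries labelled Ad-RNF128. The groups were far apart, and the log2 change was 2.97 ± 0.14 (SE, edgeR adjusted p = 1.92e-10). Ad-GFP replicate 1 held it at 0.245 CPM. Trim34, a relative of the retrovirus restriction factor Trim5, was at 6.31 and 6.84 CPM in those controls and at 55.9, 58.5 and 52.9 CPM in the libraries labelled Ad-RNF128. Its log2 change was 2.92 ± 0.10 (edgeR adjusted p = 4.32e-12), the smallest p among the 44 TRIM genes. Replicate 1 of Ad-GFP had 1.28 CPM.

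Trim5 itself, which binds incoming retroviral capsids, was at 68.6 and 48.3 CPM in those controls and at 165.0, 165.3 and 135.5 CPM in the libraries labelled Ad-RNF128, a log2 change of 1.26 ± 0.12 (edgeR adjusted p = 3.45e-07). Ad-GFP replicate 1 held it at 1.53 CPM, 38.2-fold below the mean of the other controls. Trim6, which makes unanchored ubiquitin chains in interferon signalling, was low throughout, at 0.222 and 0.516 CPM against 1.35, 1.11 and 1.56 CPM, with 0.183 CPM in Ad-GFP replicate 1. It rose by 1.64 ± 0.41 on the log2 scale, a call that was lost without Ad-GFP replicate 2 (edgeR adjusted p = 0.0573). Trim30c had no read in any control library, Ad-GFP replicate 1 included, and 13, 17 and 8 counts in the libraries labelled Ad-RNF128. Against a floor of 3 counts over Ad-GFP replicates 2 and 3 it was at least 8.59-fold higher (edgeR adjusted p = 0.000338). Without replicate 1 or without replicate 2 labelled Ad-RNF128 it did not pass the filter on low counts and was not tested.

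Trim6, Trim34, Trim5 and Trim30c are consecutive protein-coding genes on chromosome 1 in the RefSeq table of the assembly GRCr8, and all 4 rose. Their sequences are related, and how the authors' counting treated reads shared between such copies is not stated in the labels, so the split of reads among the 4 is uncertain. Trim21 and Trim68 also lie on chromosome 1. Of the 11 TRIM genes on that chromosome, all tested, 9 rose and 1 fell (Trim28), where 28.9% of all tested genes rose and 28.0% fell. The 9 include the 4 consecutive genes, and no share was taken for other genes of chromosome 1. The largest other run of neighbouring TRIM genes, on chromosome 20, has Trim31, Trim40, Trim10, Trim15 and Trim26, where the last 2 rose and the first 3 were too low to test.

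Trim26, an immune regulator, was at 42.4 and 39.1 CPM in Ad-GFP replicates 2 and 3 and at 88.0, 99.8 and 90.9 CPM in the libraries labelled Ad-RNF128 (log2 change 1.04 ± 0.08, edgeR adjusted p = 3.06e-08). Ad-GFP replicate 1 lay between the groups at 54.6 CPM. Trim25, which ubiquitinates the RNA sensor RIG-I and also transfers ISG15, was at 22.8 and 21.4 CPM against 38.5, 41.0 and 38.6 CPM, with 7.71 CPM in replicate 1. Its log2 change was 0.68 ± 0.08 (edgeR adjusted p = 3.72e-06). Trim56, linked to STING signalling, was at 69.8 and 70.1 CPM against 121.8, 134.5 and 123.2 CPM, a log2 change of 0.70 ± 0.07 (edgeR adjusted p = 9.44e-07), with 8.62 CPM in replicate 1. Among these 3 genes the ratio of mean CPM ran from 1.78 to 2.28.

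Trim14, a mitochondrial adaptor in antiviral signalling that lacks a RING domain, moved the other way. It was at 2.66 and 2.72 CPM in Ad-GFP replicates 2 and 3 and at 0.994, 0.737 and 1.19 CPM in the libraries labelled Ad-RNF128, so the groups did not overlap. The log2 change was -1.62 ± 0.27 (edgeR adjusted p = 0.000117), the one fall of 2-fold or more among the 44. Ad-GFP replicate 1, at 0.795 CPM, lay among the libraries labelled Ad-RNF128.

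**Figure D2:**
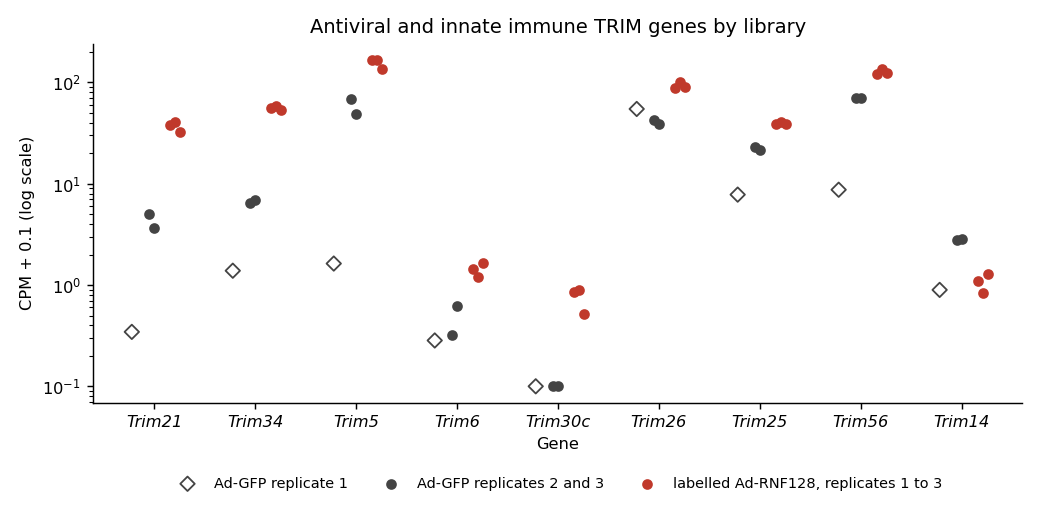
Level of the 9 antiviral and innate immune TRIM genes in each library, as CPM + 0.1 on a log axis, with one point per library. The points labelled Ad-RNF128 lie above Ad-GFP replicates 2 and 3 for 8 genes and below them for Trim14, and Ad-GFP replicate 1 (open diamond) lies below replicates 2 and 3 for 7 of the 9.

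Promoters of the rising members were searched for the interferon-stimulated response element, the site bound by interferon-activated factors. RefSeq promoters, from 250 bases before to 50 after the gene start in the build GRCr8, were found for 45 of the 55 genes by symbol. Its core, 2 copies of GAAA separated by any 2 bases, on either strand, was in 3 of the 17 promoters of genes that rose (Trim21, Trim26 and Trim34), in 1 of the other 28 (Trim40) and in 3.92% of all 33469 promoters. In the first 3, 2 matches overlapped each other. The interferon gamma site TTCNNNGAA, on either strand, was in 2 of the 45 (Trim23 and Trim31) and in 8.87% of all promoters, and the NF-kB consensus in 1 (Trim56) and 4.18%. None of these other matches shared a promoter with the core. The 4 promoters with the core are shown because 3 belong to members that rose and 1 to a gene near 0, with the matched letters in capitals.
Trim21, chr1:166399322-166399621, minus strand: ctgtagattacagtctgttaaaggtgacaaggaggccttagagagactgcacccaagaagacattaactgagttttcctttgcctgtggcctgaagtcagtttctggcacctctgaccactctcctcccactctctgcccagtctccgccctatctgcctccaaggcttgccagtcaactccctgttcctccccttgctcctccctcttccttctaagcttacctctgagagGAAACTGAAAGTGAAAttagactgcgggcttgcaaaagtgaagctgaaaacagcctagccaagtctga
Trim34, chr1:168118793-168119092, plus strand: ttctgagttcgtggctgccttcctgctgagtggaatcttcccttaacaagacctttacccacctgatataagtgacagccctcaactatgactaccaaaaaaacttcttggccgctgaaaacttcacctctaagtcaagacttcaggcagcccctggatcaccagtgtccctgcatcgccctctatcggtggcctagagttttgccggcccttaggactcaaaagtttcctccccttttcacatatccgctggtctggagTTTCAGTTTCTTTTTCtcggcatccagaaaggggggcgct
Trim26, chr20:1736262-1736561, minus strand: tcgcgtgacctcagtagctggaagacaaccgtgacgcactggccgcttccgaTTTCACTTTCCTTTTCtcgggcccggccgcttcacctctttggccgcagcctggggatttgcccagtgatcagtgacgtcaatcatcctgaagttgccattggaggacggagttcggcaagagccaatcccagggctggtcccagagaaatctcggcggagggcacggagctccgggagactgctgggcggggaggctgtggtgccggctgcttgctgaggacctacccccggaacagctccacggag
Trim40, chr20:1681083-1681382, plus strand: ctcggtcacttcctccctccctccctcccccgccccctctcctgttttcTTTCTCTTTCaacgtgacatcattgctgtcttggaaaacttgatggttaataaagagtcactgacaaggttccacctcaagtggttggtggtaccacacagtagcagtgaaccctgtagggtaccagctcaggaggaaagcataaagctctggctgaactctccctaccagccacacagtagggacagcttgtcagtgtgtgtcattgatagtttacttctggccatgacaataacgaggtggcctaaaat
In Trim21 the matches begin 18 and 12 bases before the gene start, in Trim34 10 and 16 bases after it. Trim40, with the core 201 bases before its start, had 0 counts in all control libraries and at most 2 in any library labelled Ad-RNF128. A match of letters is not a bound site.

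Genes that TRIM proteins act on or with were taken from lists. Of 16 antiviral signalling genes tested, 10 rose and 0 fell, with a median log2 change of 0.42, where 28.9% of all tested genes rose and 28.0% fell. Over all 6 libraries edgeR called 0 of the 16. Ddx58, which encodes the Trim25 substrate RIG-I, was at 21.05 and 21.09 CPM against 125.6, 137.9 and 123.2 CPM (log2 change 2.46 ± 0.08), while Mavs, its downstream adaptor, did not pass (log2 change -0.20 ± 0.09, edgeR adjusted p = 0.065). All 12 interferon markers tested rose, and edgeR called 0 of the 12 over all 6 libraries. Ad-GFP replicate 1 held these markers at a sum of 2942 CPM, against 99.0 and 113 CPM in replicates 2 and 3 and 3473 to 3949 CPM in the libraries labelled Ad-RNF128. That sum came mainly from 4 genes, Bst2 (1711 CPM), Oasl (535.8 CPM), Usp18 (398.6 CPM) and Stat2 (258.8 CPM). Other markers were far lower there than in the libraries labelled Ad-RNF128, such as Ifit1 at 11.2 CPM against 483.1 to 590.8 CPM and Mx2 at 8.93 CPM against 560.9 to 657.0 CPM.

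Among 19 ubiquitin, E1 and E2 genes, 5 rose and 6 fell, with a median log2 change of -0.05. These counts were near the shares of all tested genes, 28.9% and 28.0%, and over all 6 libraries edgeR called 0 of the 19. Uba7 and Ube2l6, the E1 and E2 of ISG15 conjugation, rose by 3.02 ± 0.10 and 2.72 ± 0.09 on the log2 scale. Ad-GFP replicate 1, however, held them at 46.7 and 75.2 CPM. That was just under the 54.3 to 59.7 and 78.1 to 85.6 CPM of the libraries labelled Ad-RNF128. With that replicate the log2 changes were 0.35 and 0.15 (edgeR adjusted p = 0.98 and 0.991). Ube2d1, a general partner of RING ligases, had a log2 change of -0.44 ± 0.08 and Ube2n, which builds K63-linked chains, of -0.05 ± 0.07 (edgeR adjusted p = 0.000372 and 0.535). Of 5 TRIM family genes that carry other names, 3 were tested. Pml, an interferon-induced nuclear body protein gene, rose by 0.88 ± 0.07, Mid1, a microtubule-bound ligase gene, fell by 0.45, and its close relative Mid2 did not pass.

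TRIM genes known from heart and skeletal muscle did not move together. Of 6, 2 rose (Trim55 and Trim63), 1 fell (Trim24) and 3 did not pass (Trim54, Trim72 and Trim32). Of all tested genes 28.9% rose and 28.0% fell, and 6 genes are too few to set apart from these shares. The median log2 change was -0.11. Trim55, or MuRF2, was at 90.6 and 90.7 CPM in Ad-GFP replicates 2 and 3 and at 241.6, 253.9 and 242.4 CPM in the libraries labelled Ad-RNF128. The groups were well separated, with a log2 change of 1.29 ± 0.07 (edgeR adjusted p = 5.3e-10), and Ad-GFP replicate 1 lay lower still at 42.4 CPM.

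Trim63, or MuRF1, is the gene whose alias RNF28 appears in a protocol sentence. It was at 14.6 and 16.5 CPM in Ad-GFP replicates 2 and 3 and at 26.8, 25.1 and 26.3 CPM in the libraries labelled Ad-RNF128 (log2 change 0.58 ± 0.09, edgeR adjusted p = 0.000103), a 1.67-fold ratio of mean CPM. Ad-GFP replicate 1, at 27.9 CPM, lay above all 5 other libraries, and with it included the log2 change was -0.45 (edgeR adjusted p = 0.907). The direction for Trim63 therefore depends on that library.

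Trim54, or MuRF3, was near the detection limit in 5 libraries, at 0.554 and 0.656 CPM in Ad-GFP replicates 2 and 3 and at 0.585, 0.276 and 0.312 CPM in the libraries labelled Ad-RNF128. The groups overlapped and the test did not pass (log2 change -0.82 ± 0.46, edgeR adjusted p = 0.144). Ad-GFP replicate 1 held 184 counts of it, or 11.3 CPM, 18.6-fold above the mean of the other controls. Trim72, or MG53, a membrane repair protein of striated muscle, was at 0.720 and 0.656 CPM against 0.936, 0.783 and 0.260 CPM, with 1.10 CPM in Ad-GFP replicate 1, and did not pass (log2 change -0.22 ± 0.46, edgeR adjusted p = 0.704). Its lowest value was in replicate 3 labelled Ad-RNF128, the library with Myh6 at 0.104 CPM, and without that library the log2 change was 0.17.

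Trim32, an NHL member mutated in a limb-girdle muscular dystrophy, was at 46.6 and 49.7 CPM against 54.2, 52.5 and 55.1 CPM, with 17.2 CPM in Ad-GFP replicate 1. The compared groups do not overlap in CPM, yet the TMM-scaled log2 change was 0.00 ± 0.07 (edgeR adjusted p = 0.959), since the scaling factors differed between the groups (0.955 and 0.921 against 1.04 to 1.05). Trim24, a nuclear corepressor, was at 22.9 and 23.2 CPM against 20.9, 21.4 and 22.5 CPM, with 1.65 CPM in Ad-GFP replicate 1. Its log2 change of -0.25 ± 0.08 (edgeR adjusted p = 0.0206) was -0.09 with library totals alone and no longer passed (adjusted p = 0.341).

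**Figure D3:**
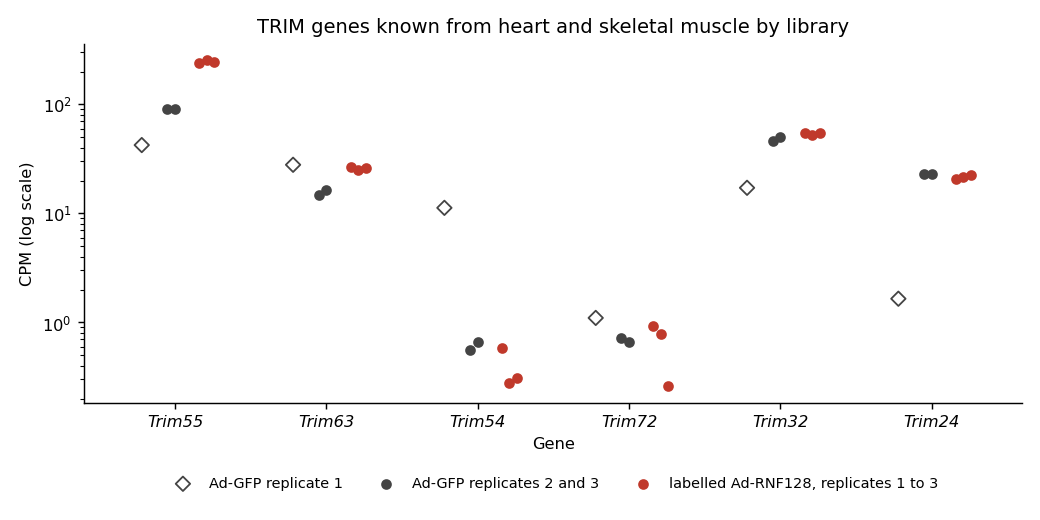
Level of 6 TRIM genes known from heart and skeletal muscle, as CPM on a log axis, with one point per library. Trim55 and Trim63 are higher in the libraries labelled Ad-RNF128 than in Ad-GFP replicates 2 and 3, and Ad-GFP replicate 1 (open diamond) is the highest of all libraries for Trim63, Trim54 and Trim72.

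Muscle markers and other genes linked to MuRF proteins are given beside these values. Of 10 such genes tested, 4 rose and 5 fell, where 28.9% of all tested genes rose and 28.0% fell. Over all 6 libraries edgeR called 0 of the 10. Fbxo32, or atrogin-1, the other main muscle atrophy ligase, was at 20.4 and 19.8 CPM against 10.5, 9.17 and 8.26 CPM (log2 change -1.27 ± 0.11, edgeR adjusted p = 2.38e-07), opposite in sign to Trim55 and Trim63. Ttn, the sarcomere scaffold to which MuRF proteins bind, fell by 1.98 on the log2 scale, and Sqstm1, an autophagy receptor, rose by 1.11 ± 0.07. Ad-GFP replicate 1 held Fbxo32 at 0.673 CPM, below every library labelled Ad-RNF128, and Ttn at 4.34 CPM, within their 4.10 to 7.00 CPM. The 2 falls thus rest on Ad-GFP replicates 2 and 3. With replicate 1 included the log2 changes were -0.75 for Fbxo32 and -1.72 for Ttn. Ad-GFP replicate 1 held Sqstm1 at 3828 CPM, above the 1093 to 1183 CPM of the libraries labelled Ad-RNF128. With that replicate the log2 change of Sqstm1 was -1.68. Cardiomyocyte markers had 0 that rose and 2 that fell among 10 tested, with Tnnt2 and Ttn as the 2. Of 6 skeletal lineage markers, 3 fell and 2 rose. The muscle transcription factors Myod1 and Myog and the embryonic myosin gene Myh3 had log2 changes of -0.92, -2.61 and -1.51, and Mymk, a myoblast fusion gene, and Actn3 had 1.26 and 1.73. In Ad-GFP replicate 1, Myog (3.85 CPM) and Myh3 (0.367 CPM) lay below every library labelled Ad-RNF128, while Myod1 (63.3 CPM) lay above every other library. Mymk was at 8.93 CPM in Ad-GFP replicate 1, above every other library, and its log2 change with that replicate was -0.96. Summed, the 6 skeletal markers, most of whose counts are Myod1 and Myog, were 90.8 and 92.7 CPM in Ad-GFP replicates 2 and 3 and 42.1 to 45.4 CPM in the libraries labelled Ad-RNF128. The part of these shifts in the TRIM values was not tested.

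The remaining members that rose most came from several structural classes. Trim66, a testis-enriched chromatin reader with a PHD finger and bromodomain, was at 0.277 and 0.234 CPM in Ad-GFP replicates 2 and 3 and at 6.08, 4.51 and 6.18 CPM in the libraries labelled Ad-RNF128. With 5 counts in each of these controls against 104, 98 and 119, the ratio of mean CPM was 21.9, and the log2 change was 4.27 ± 0.32 (edgeR adjusted p = 4.5e-08). Trim66 passed the filter on low counts only through the libraries labelled Ad-RNF128. Ad-GFP replicate 1, at 0.367 CPM, was close to the other controls, and with it included the log2 change was 3.58 (edgeR adjusted p = 0.176). Trim29, a member without a RING domain known from epithelia, was at 0.499 and 0.563 CPM against 2.81, 3.69 and 3.38 CPM (log2 change 2.46 ± 0.29, edgeR adjusted p = 5.44e-06). Its 4.10 CPM in Ad-GFP replicate 1 exceeded every other library, and the log2 change with that library was -0.21 (edgeR adjusted p = 0.987).

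Trim68, a SPRY member known as an autoantigen, was at 22.7 and 24.0 CPM against 61.6, 59.1 and 56.4 CPM (log2 change 1.18 ± 0.08, edgeR adjusted p = 1.14e-08), with 4.28 CPM in Ad-GFP replicate 1. Trim7, first described as a partner of glycogenin, was at 8.09 and 6.94 CPM against 16.2, 15.98 and 20.05 CPM (log2 change 1.06 ± 0.13, edgeR adjusted p = 9.86e-06), with 7.22 CPM in replicate 1. For Trim7 the 3 controls thus lay close together and all below the other group. Trim17, neighbour of Trim11 on chromosome 10, also rose at least 2-fold, but at under 2 CPM and with an edgeR adjusted p of 0.0276.

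Seen by class, 14 of 22 tested SPRY members rose and 1 fell, with a median log2 change of 0.59. Over all tested genes 28.9% rose and 28.0% fell. No set test was made for any class, and the other classes are too small to compare with these shares. The SPRY rises include Trim5, Trim6, Trim21, Trim25, Trim26, Trim30c and Trim34 of the antiviral list. Over all 6 libraries edgeR called 0 of the 21 SPRY members tested, with a median log2 change of 0.26. In the PHD and bromodomain class Trim66 rose while Trim28, Trim24 and Trim33 fell. Among the 4 NHL members Trim3 alone passed, with a rise of 0.46 ± 0.07. In the MuRF class 2 of 3 rose, and of the transmembrane members, which sit in the endoplasmic reticulum, Trim59 fell and Trim13 did not pass. Neither tested COS-FN3 member (Trim36 and Trim46) passed, and among the 7 tested members with other C-terminal domains or none, 3 rose and 2 fell.

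Falls were mostly small. Trim28, or KAP1, which silences retroelements with zinc finger proteins, was at 312.2 and 302.4 CPM in Ad-GFP replicates 2 and 3 and at 227.5, 235.6 and 255.3 CPM in the libraries labelled Ad-RNF128 (log2 change -0.51 ± 0.07, edgeR adjusted p = 1.36e-05). Ad-GFP replicate 1 was higher again at 379.3 CPM, so all 3 controls lay above the other group. Trim33, a Smad4 ligase, was at 37.3 and 33.0 CPM against 34.4, 30.2 and 30.5 CPM, with a log2 change of -0.31 ± 0.08 (edgeR adjusted p = 0.00568) although its CPM overlapped. Trim59 was at 43.0 and 33.4 CPM against 35.0, 31.0 and 34.7 CPM (log2 change -0.34 ± 0.09, edgeR adjusted p = 0.00743), again with overlap. With library totals alone, Trim14 and Trim28 were the only 2 of the 7 still called lower. The calls for Trim24, Trim33, Trim37, Trim44 and Trim59 ended.

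Among other abundant members, Trim8, a regulator of cytokine signalling, was at 102.3 and 104.3 CPM against 129.6, 135.2 and 138.9 CPM, a log2 change of 0.23 ± 0.07 (edgeR adjusted p = 0.0096). Ad-GFP replicate 1 held it at 136.1 CPM, between the lowest and highest library of the other group, and the log2 change with it was -0.53. The call was also lost without Ad-GFP replicate 2 (edgeR adjusted p = 0.0826). Trim35, a SPRY member, was at 129.0 and 134.8 CPM against 145.0, 148.1 and 158.3 CPM, with 73.99 CPM in Ad-GFP replicate 1, and the TMM-scaled test did not pass (log2 change 0.04 ± 0.07, edgeR adjusted p = 0.689). Trim2, a neuronal NHL ligase, was at 51.5 and 55.1 CPM against 51.8, 58.0 and 51.0 CPM, and Trim23, which also has an ARF GTPase domain, at 29.1 and 23.02 CPM against 35.9, 31.9 and 25.6 CPM. Both overlapped between the groups and did not pass (edgeR adjusted p = 0.123 and 0.479). The 16 members that did not pass had log2 changes of -0.82 to 0.27.

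Ad-GFP replicate 1 departed from its group in both directions. Of the 38 TRIM genes with a mean of at least 1 CPM over the other 5 libraries, 22 were below all of these libraries in it, 9 above all and 7 within their range, where 67.3%, 24.7% and 8.07% of all such genes were. It was more than 2-fold below the mean of replicates 2 and 3 for 21 of the 38 and more than 2-fold above for 6, against 59.3% and 18.6% of all such genes. The lowest relative values were those of Trim2 at 0.489 CPM, Trim59 at 0.245 CPM, Trim23 at 0.0612 CPM and Trim33 at 0.306 CPM, which rest on 8, 4, 1 and 5 counts. Trim2, Trim59 and Trim33 were thus 109-fold, 156-fold and 115-fold below the mean of replicates 2 and 3 in CPM, with few counts behind each ratio. At the other end, Trim29 was 7.72-fold above that mean in CPM. Trim3, an NHL member, was also above, at 199.7 CPM against 61.9 and 63.5 CPM. Trim28, Trim35, Trim8 and Trim27, by contrast, differed by less than 2-fold.

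Beside the calls, the replicate lay as follows. Of the 21 genes that rose against replicates 2 and 3, Ad-GFP replicate 1 was below every library labelled Ad-RNF128 in 14, within their range in 1 (Trim8) and above all in 6 (Trim3, Trim11, Trim29, Trim41, Trim62 and Trim63). Of the 7 genes that fell, it was below the libraries labelled Ad-RNF128 in 5, within their range for Trim14 and above them for Trim28. Of the 20 risen genes also tested over all 6 libraries, 13 kept a log2 change above 0, and 7 did not. No share over all called genes was taken for these counts. Ad-GFP replicate 1 lay below all 5 other libraries in 67.3% of all genes with a mean CPM of at least 1. A low value in it is therefore not particular to TRIM genes that rose.

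**Figure D4:**
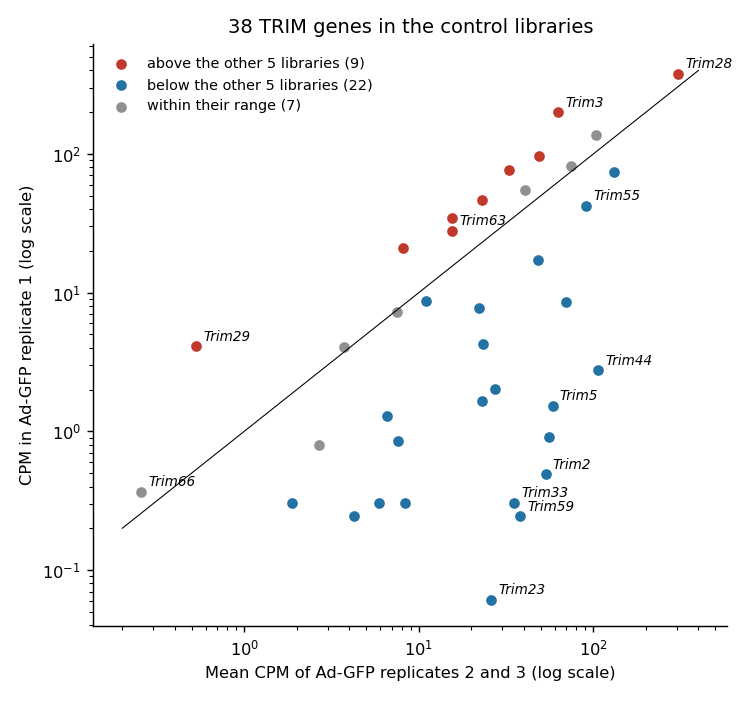
Level in Ad-GFP replicate 1 against the mean of Ad-GFP replicates 2 and 3 for the 38 TRIM genes with a mean of at least 1 CPM over the other 5 libraries, both as CPM on log axes, with the line of equal level. Genes in blue (22) lie below and genes in red (9) above all 5 other libraries, and Trim23, Trim59, Trim33 and Trim2 lie farthest below the line.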

How the data were processed

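Reads per gene were counted by the authors with HTSeq 0.13.5 after HISAT2 alignment to mRatBN7.2, per the submitters' processing notes; no strand setting is given in the sources used here, so reads of antisense or overlapping genes cannot be separated. The deposited values are whole read counts, except that the column of Ad-GFP replicate 1 holds 1 value that is not whole and was treated as an expected count and rounded.

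CPM values used library totals. Differential expression was tested on the whole table with edgeR 4.0.16 in R 4.3.3 (filterByExpr, TMM, quasi-likelihood F-test, Benjamini-Hochberg adjustment, threshold 0.05). Fold changes are libraries labelled Ad-RNF128 over Ad-GFP, and the SE was derived from the log2 change and its F statistic, which for genes with few control reads can understate counting error. Alternatives were DESeq2 1.42.0, limma-voom (limma 3.58.1), other scalings and filters, a replicate block and leaving out libraries. The fits were tested on simulated data. No set test was made. Floors are 3 counts and intervals 95%, for counting error only.

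Values in every library are given for the muscle and antiviral lists, for the 8 largest rises and falls among genes that passed, had a mean of at least 1 CPM and did not overlap (3 falls qualified), for the 5 most abundant members, and for the 4 in which Ad-GFP replicate 1 was farthest from replicates 2 and 3. Other genes named were chosen after their values were seen. The members, lists and the separate treatment of Ad-GFP replicate 1 were chosen with earlier results of these data known. RefSeq promoters and gene order come from GRCr8 and were matched by symbol (55 of 55 for gene order). Protein comparisons were not made.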

Additional observations from a re-analysis of the deposited data

How the results depend on the processing

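Against Ad-GFP replicates 2 and 3, the TRIM genes called were 18 higher and 6 lower with DESeq2, 21 and 7 with limma-voom, with median-of-ratios size factors and without a low-count filter, and 18 and 7 with the stricter filter. Over all genes, DESeq2 called 3311 higher and 3297 lower, limma-voom 3770 and 3698, and median-of-ratios factors 3765 and 3733. Without a filter the all-gene calls were 3920 and 3824, and with the stricter filter 3579 and 3500. Library totals alone gave 25 higher and 2 lower (all genes: 5367 and 2409). A log2 change of at least 1 left 12 higher and 1 lower (all genes: 1102 and 499). An adjusted p under 0.01 left 18 higher and 4 lower (all genes: 2943 and 2909). With Ad-GFP replicate 1 there were 0 and 0 (all genes: 0 and 0). Leaving out 1 of the 5 libraries gave 16 to 21 higher and 3 to 6 lower, and 3244 to 3716 and 3200 to 3409 over all genes. With 1 control left, that sample is assumed to vary like the others. Trim17 was lost in 4 of these 5 fits.

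The median log2 change of the tested TRIM genes was 0.33 with totals, 0.42 without a filter, 0.22 with Ad-GFP replicate 1 and 0.15 to 0.24 when a library was left out. Over all 6 libraries, DESeq2 called 244 genes higher and 142 lower (TRIM: 4 and 1), limma-voom 14 higher and library totals 8 higher. Leaving out 1 of the 6 gave 0 to 21 TRIM genes higher and 0 to 7 lower (0 to 3812 and 0 to 3689 over all genes); each count above 0 came from leaving out Ad-GFP replicate 1.

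With Ad-GFP replicate 1 the log2 change turned to -0.45 for Trim63, 0.21 for Trim24, -0.21 for Trim29, -0.11 for Trim35, -0.53 for Trim8, 0.41 for Trim2, 0.22 for Trim59 and 0.25 for Trim33. Other genes with a call also turned, to -1.18 for Trim3, -0.98 for Trim11, -0.81 for Trim41, -1.04 for Trim62, 0.34 for Trim37 and 0.35 for Trim44. The cause was not tested. Changes near 0 also turned, to -0.0001 for Trim32 with median-of-ratios factors and -0.0056 without a filter, to 0.0075 for Trim2 with totals and to -0.0079 for Trim23 with the replicate block. Leave-one-out values were -0.0659 to 0.0796 for Trim32, -0.49 to 0.17 for Trim72, -0.0225 to 0.0938 for Trim35 and -0.0354 to 0.25 for Trim23.

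With the replicate number as a block the TRIM calls were 20 higher and 7 lower (all genes: 3931 and 3864), with a median of 0.21. Trim17 lost its call. The numbers are not shown to pair samples: deviations of same-numbered libraries correlated at -0.187, 0.0209 and -0.151 over all 6 libraries, and at 0.128 within replicates 2 and 3. Depth limits the 11 untested genes and the 6 under 1 CPM.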

Other observations

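The single count that is not whole, in Ad-GFP replicate 1, equals the mean of the counts 324 and 365 that replicates 2 and 3 hold for the same gene. Of 10048 genes with a mean of at least 100 counts in replicates 2 and 3, replicate 1 was within 0.5 counts of their mean in 6. Of the 32 TRIM genes among them, none was.

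Cell markers other than those of muscle were also measured. Of 3 macrophage and leukocyte markers tested, 2 rose (Csf1r and Cd68), where 28.9% of all tested genes rose and 28.0% fell. Csf1r, a macrophage receptor gene, rose from 0.388 and 0.469 CPM in Ad-GFP replicates 2 and 3 to 2.22, 2.67 and 1.97 CPM in the libraries labelled Ad-RNF128 (log2 change 2.24 ± 0.33, edgeR adjusted p = 4.64e-05). Cd14, the most abundant of the 3, did not pass (log2 change 0.09, edgeR adjusted p = 0.427). It was at 16.1 and 15.7 CPM against 18.8, 18.3 and 19.2 CPM, with 33.6 CPM in Ad-GFP replicate 1. The leukocyte marker Ptprc had 0 counts in all control libraries and at most 0.156 CPM elsewhere, and Pecam1, an endothelial marker, was at or under 0.276 CPM in all 6. Of the 5 endothelial markers 2 were tested and both rose, Vwf from 4.04 and 3.70 to 6.61, 5.57 and 6.23 CPM (edgeR adjusted p = 0.0169) and Cdh5 by 1.53 on the log2 scale at under 1 CPM (edgeR adjusted p = 0.0355). Ad-GFP replicate 1 held Vwf at 5.20 CPM and Cdh5 at 0.612 CPM. With that replicate the log2 changes were -0.25 and 0.05. Of 4 smooth muscle markers, 2 rose and 1 fell. Acta2, the most abundant, had a log2 change of -0.38, Tagln of 0.20 and Myh11 of 1.57, the last from 7.42 and 9.09 to 27.0, 27.4 and 28.1 CPM. Of 8 fibroblast markers tested, 5 fell and 0 rose, and Thy1 did not pass (log2 change 0.17, edgeR adjusted p = 0.0595). Their sum, mostly of the collagen genes Col1a1, Col1a2 and Col3a1, was 38416 and 40049 CPM in Ad-GFP replicates 2 and 3, 3243 CPM in replicate 1 and 10538 to 11450 CPM in the libraries labelled Ad-RNF128. Their part in the TRIM values was not tested.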
